A study of Mus musculus with 4 samples.

Results

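The proteasome is the large protease that degrades ubiquitin-tagged proteins in the cytosol and nucleus. Its barrel-shaped core is built from rings of alpha subunits, which form the gate, and rings of beta subunits, which carry the proteolytic sites. A regulatory particle of ATPase subunits, which unfold and feed in the substrate, and non-ATPase subunits, which bind ubiquitin chains and remove them, caps the core. The genes described here are the constitutive subunits, taken as all non-control probes whose gene name is Psma, Psmb, Psmc or Psmd followed by a number, without Psmb8, Psmb9 and Psmb10, the subunits that interferon induces. This rule uses names and no measured value. It found 68 of 56605 probes and 36 of 27195 named genes: 8 core alpha genes with 15 probes, 8 core beta genes with 12, 6 ATPase genes with 12 and 14 non-ATPase genes with 29.

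Total RNA of 4 samples was labelled with Cy3 and hybridised to 1 Agilent array each. The samples were brainstem/cerebellum of transgenic mice, brainstem/cerebellum of wild-type mice, spinal cord of transgenic mice and spinal cord of wild-type mice, all at 24 weeks of age and on a mixed background of the C57BL/6, 129 and C3H strains. The submitters call the transgenic animals MSA Tg mice, after multiple system atrophy, a disease in which alpha-synuclein is deposited in oligodendrocytes. The labels give neither the transgene nor its promoter, and the sample titles begin with PLP without expansion. They also do not say whether a sample is a single animal or a pool, and they name brain as the source of all 4 samples, also for spinal cord. With 1 array in each group there is no replicate, so no p-value, SD between animals or test of any difference is given, and every comparison is one between arrays.

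The wild-type spinal cord array was alone on its slide and the other 3 arrays shared a slide, so in spinal cord the genotype and the slide cannot be told apart. The 75th percentile of the signal was 686 on that array, against 414 to 463 on the others. All values below are levels on the log2 scale relative to that percentile, or differences between them. Well above background were 59.2% to 64.0% of spots. Marker genes fitted the tissue labels: the mean level of 7 cerebellar genes was -0.83 and -0.17 in transgenic and wild-type spinal cord but 5.27 and 5.25 in transgenic and wild-type brainstem/cerebellum, and 8 Hox genes of the spinal cord averaged -0.40 and -0.02 in transgenic and wild-type spinal cord but -6.06 and -6.25 in transgenic and wild-type brainstem/cerebellum.

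Most subunit genes were bright. Of the 68 probes, 63 were well above background on all 4 arrays and 5 on none, and 35 of 36 genes had a measured difference in both tissues. The exception was Psmb11, the beta subunit of the thymus, whose only probe was not well above background on any array. In brainstem/cerebellum 23 of the 35 genes lay in the brightest 10% of genes, above a level of 3.49, and in spinal cord 23 did as well. The technical error, the SD of the difference between 2 spots of 1 probe, was 0.09 above a level of 4, 0.11 between 2 and 4, and 0.24 between -4 and -2. It comes from spots within an array, so it holds no variation between labellings, arrays, slides or animals. A difference between arrays beyond 2 of these SDs can therefore arise without a difference in genotype.

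A few of the probes are printed here, since each value is the signal of a stretch of 60 bases of the transcript. The first 2 belong to the subunits with the lowest spinal cord differences, the third is the dimmer probe of Psmd2, whose 2 probes both gave opposite signs in the tissues, the next is that of Psmb7, a catalytic subunit, and the last is a Psma3 probe that did not follow the other probes of its gene. They lie, in mm9, at chr11:106124192-106124376 on the plus strand (Psmc5), chr2:34708108-34708167 on the minus strand (Psmd5), chr16:20659542-20659601 on the plus strand (Psmd2), chr2:38468966-38489385 on the minus strand (Psmb7) and chr12:72094057-72094541 on the plus strand (Psma3). The Psmc5, Psmb7 and Psma3 probes cover 185, 20420 and 485 bases of genome with their 60 bases, as probes across an intron do.
Psmc5: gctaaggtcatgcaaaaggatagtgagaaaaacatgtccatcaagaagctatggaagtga
Psmd5: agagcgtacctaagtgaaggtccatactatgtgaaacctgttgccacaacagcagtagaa
Psmd2: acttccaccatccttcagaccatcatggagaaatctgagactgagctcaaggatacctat
Psmb7: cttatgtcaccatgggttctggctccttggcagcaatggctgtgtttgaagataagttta
Psma3: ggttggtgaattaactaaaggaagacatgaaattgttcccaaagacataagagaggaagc

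In transgenic brainstem/cerebellum the subunit genes were slightly lower than in wild-type brainstem/cerebellum, almost without exception. The difference was below 0 for 31 of 35 genes, with a median of -0.18, while 59.3% of 16948 measured genes were below 0, with a median of -0.06. Over the 6 other normalizations tried 28 to 33 of the 35 were below 0. Of these 6, the authors' values matched the quantile normalization and are not a separate check. The median was -0.09 with quantile normalization (-0.05 for all genes). No subunit reached a change of 1.5-fold in either direction, where 6.43% of all genes were higher by that size and 2.22% lower. Beyond 2 technical SDs, 15 subunits were lower and 1, Psma7, was higher, against 17.7% and 12.6% of all genes. Bright genes as a class were lower on this pair of arrays: the brightest 10% of all genes (1695) had a median of -0.11 with 73.4% below 0, and the 23 subunits in it had a median of -0.19 with 21 below 0.

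**Figure D1:**
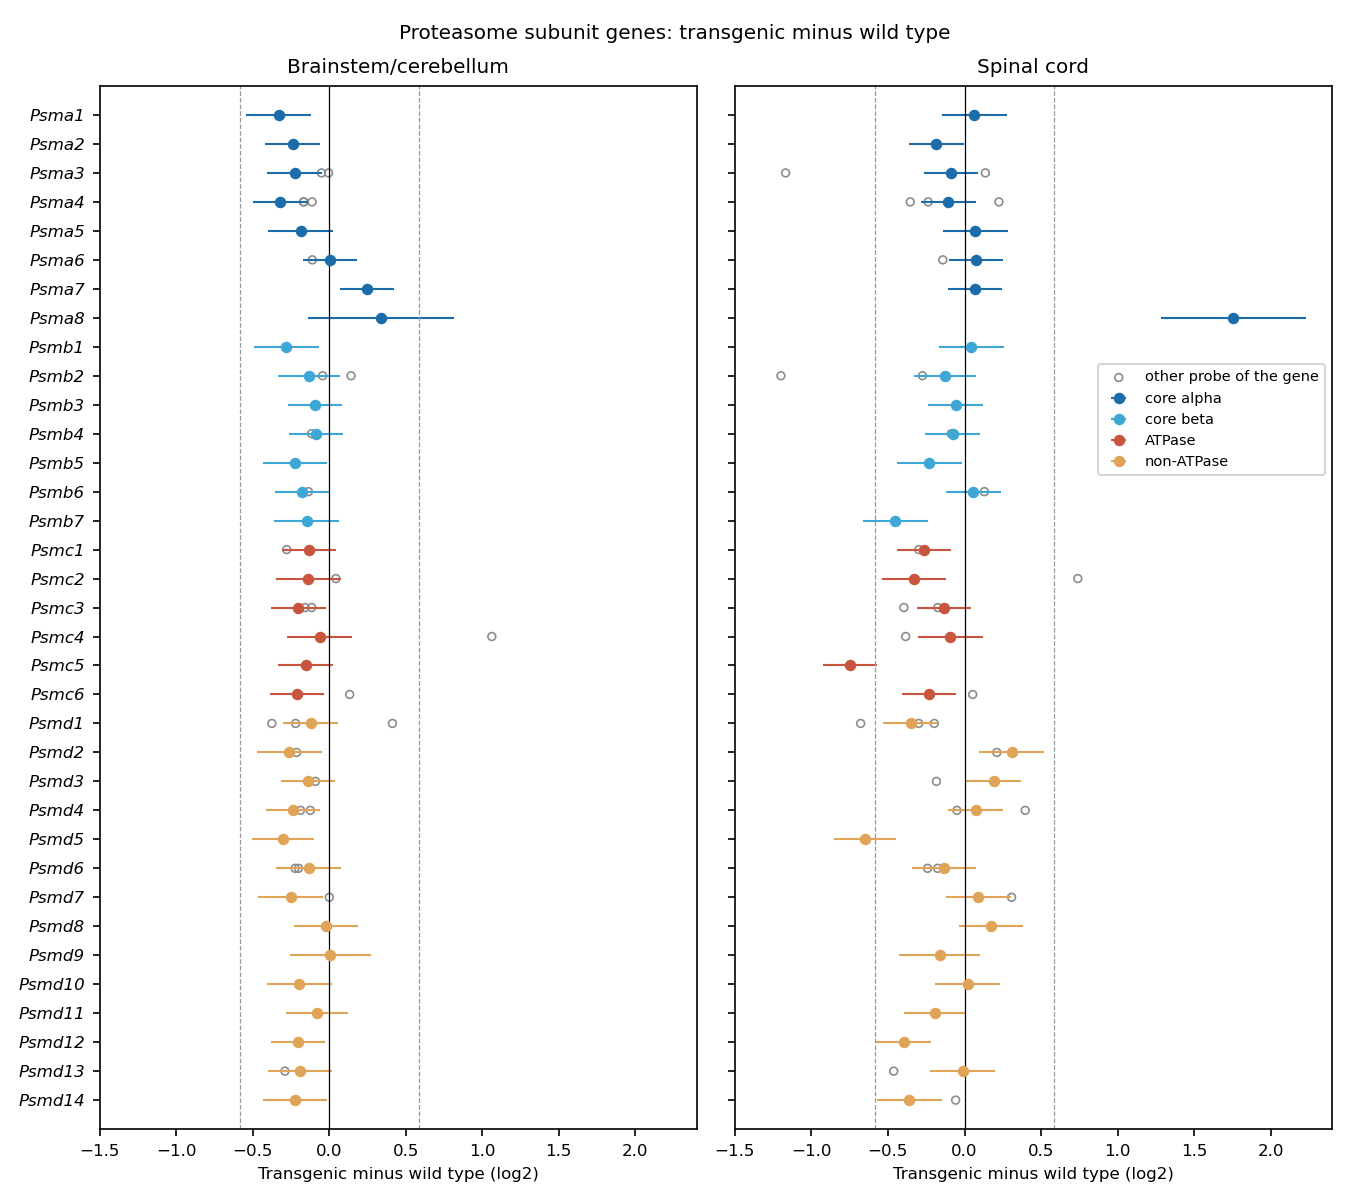
Transgenic minus wild type (log2) for the 35 subunit genes above background, in brainstem/cerebellum (left) and spinal cord (right). Filled points are the brightest probe of each gene, coloured by subunit class. Bars are 2 technical SDs either side, from spots within an array. Open circles are the other probes of the gene, and dashed lines mark 1.5-fold. On the left 31 genes lie below 0 and on the right 22.

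**Figure D2:**
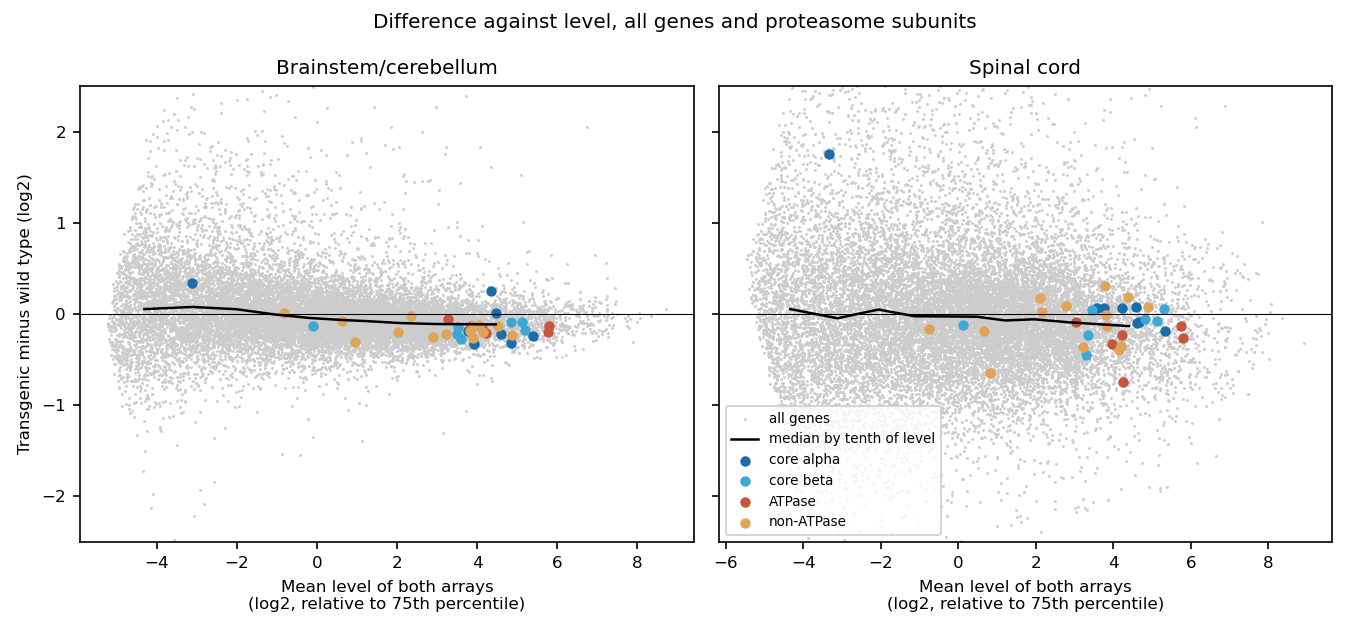
Transgenic minus wild type (log2) against the mean level of both arrays (log2, relative to the 75th percentile) for all measured genes (grey) and the subunits (coloured), with the median in each 10% of genes by level as a line; genes beyond 2.5 either way are not drawn. In brainstem/cerebellum (left) the line falls to -0.11 at the bright end and the subunits have a median of -0.18.

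In transgenic spinal cord the subunit genes scattered around wild-type spinal cord with little common shift. The difference was below 0 for 22 of 35 genes with a median of -0.09, against 53.4% of 17244 genes and a median of -0.05. With spike-in scaling, which moved the median of all genes to -0.52, 34 of the 35 were below 0 (80.2% of all genes), 1 was higher past 1.5-fold (7.95% of all genes) and 16 were lower (45% of all genes). Past 1.5-fold were 1 subunit that was higher, Psma8, and 2 that were lower, Psmc5 and Psmd5, where 16.2% of all genes were higher and 17.7% lower by that size. At 2-fold Psma8 alone was left, against 8.48% of all genes higher and 6.42% lower. Beyond 2 technical SDs, 3 subunits were higher and 11 lower, against 26.7% and 33.5% of all genes. Among the 1725 genes of the brightest 10% the median was -0.16 with 64.1% below 0, and among the 23 subunits there it was -0.08 with 14 below 0.

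Across the 2 tissues 21 subunits were lower in both, 3 were higher in both (Psma6, Psma7 and Psma8), 10 were lower in brainstem/cerebellum and higher in spinal cord, and 1, Psmd9, was the other way round. Over all 16487 genes above background on every array these shares were 40.5%, 26.8%, 18.9% and 13.8%, and over the brightest 10% they were 54.8%, 17.1%, 18.3% and 9.76%. With spike-in scaling only Psma8 stayed above 0 in spinal cord. Lower beyond 2 technical SDs in both tissues were 6 of 35 genes (17.1%), Psma2, Psmb5, Psmc6, Psmd5, Psmd12 and Psmd14, against 11.8% of all genes and 20.4% of the brightest 10%. These calls use the brightest probe. A dimmer Psmc6 probe was higher in brainstem/cerebellum (0.13) and spinal cord (0.05), and a dimmer Psmd14 probe gave -0.21 and -0.06. The differences of the 35 genes in the 2 tissues had a Pearson r of 0.55 but a Spearman rho of 0.10. Without the assembly factors Psmd5, Psmd9 and Psmd10 and the tissue-restricted Psma8 (Psmb11 being unmeasured), r over 31 genes was 0.05. Over all 16487 genes above background on every array r was 0.59 and rho 0.46; genes share their arrays and are not independent.

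The alpha subunits form the outer rings of the core and its gate. Their median difference was -0.21 in brainstem/cerebellum and 0.07 in spinal cord over 8 genes, the second turning to -0.04 with normexp and -0.40 with spike-in scaling. Psma1 had the lowest difference in brainstem/cerebellum (-0.33), at 3.76 in transgenic and 4.09 in wild-type tissue. In spinal cord Psma1 read 3.61 in transgenic and 3.55 in wild-type tissue. Its wild-type brainstem/cerebellum value stood above the other 3, which lay within 0.21 of each other. Psma7 was the only subunit that was higher in transgenic brainstem/cerebellum by over 2 technical SDs, at 4.48 against 4.23 in wild type (0.25), while spinal cord gave 4.25 in transgenic and 4.18 in wild-type tissue. Psma2 had the lowest spinal cord difference of the class (-0.18), at 5.24 in transgenic and 5.43 in wild-type tissue. In brainstem/cerebellum it read 5.28 in transgenic and 5.51 in wild-type tissue (-0.24).

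Psma8, the alpha subunit of testis proteasomes, was the dimmest subunit gene with a measured difference. It read -2.94 in transgenic and -3.28 in wild-type brainstem/cerebellum (0.34), and -2.45 in transgenic and -4.20 in wild-type spinal cord (1.75, or 3.37-fold). The wild-type spinal cord array was low and the other 3 lay closer together. The technical SD was 0.24 at the mean level of this gene but 0.63 below a level of -4, where the wild-type spinal cord value lay. A second Psma8 probe was not well above background on any array, so the difference rests on 1 probe and 1 array of the other slide. It was 0.75 with normexp background correction. Transgenic spinal cord minus transgenic brainstem/cerebellum, both on the same slide, was 0.49 for this gene.

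The beta subunits hold the active sites. The median over 7 measured genes was -0.15 in brainstem/cerebellum, where all 7 were below 0, and -0.08 in spinal cord, where 5 were. Of all genes 59.3% and 53.4% were below 0 in these tissues, and of the brightest 10% 73.4% and 64.1%. Psmb1, a structural beta subunit, had the lowest brainstem/cerebellum difference (-0.28), at 3.46 in transgenic and 3.74 in wild-type tissue, and read 3.48 in transgenic and 3.44 in wild-type spinal cord. Psmb4, also structural, differed least over the arrays of all subunits: 5.08 in transgenic and 5.17 in wild-type brainstem/cerebellum, 5.09 in transgenic and 5.17 in wild-type spinal cord, a range of 0.09.

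The catalytic subunits did not share 1 pattern in spinal cord. Psmb5, the chymotrypsin-like subunit, was lower by the same amount in both tissues: 3.37 in transgenic and 3.60 in wild-type brainstem/cerebellum (-0.22), and 3.22 in transgenic and 3.45 in wild-type spinal cord (-0.23). Psmb6, the caspase-like subunit, was lower in brainstem/cerebellum, at 5.10 in transgenic and 5.28 in wild-type tissue (-0.18), and read 5.33 in transgenic and 5.28 in wild-type spinal cord (0.06). Psmb7, the trypsin-like subunit, read 3.44 in transgenic and 3.59 in wild-type brainstem/cerebellum (-0.15) but 3.07 in transgenic and 3.52 in wild-type spinal cord (-0.45). For Psmb7 the transgenic spinal cord value stood below the other 3.

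By their brightest probes the ATPases, the motor ring of the regulatory particle, were lower in all 6 cases in both transgenic tissues. Their medians were -0.15 in brainstem/cerebellum and -0.25 in spinal cord. In spinal cord all 6 stayed below 0 under every normalization tried. In brainstem/cerebellum Psmc4 turned above 0 with spike-in scaling and with quantile normalization, which the authors' values matched. In spinal cord 4 of the 6 were lower by over 2 technical SDs, Psmc1, Psmc2, Psmc5 and Psmc6, against 33.5% of all genes. Psmc5 had the lowest difference of all subunits there: 3.87 in transgenic and 4.62 in wild-type tissue (-0.75, a ratio of 0.595), against 4.04 in transgenic and 4.19 in wild-type brainstem/cerebellum (-0.15). Its wild-type spinal cord value stood apart, since the 3 arrays of the shared slide spanned 3.87 to 4.19. By its brightest probe Psmc6 read 4.12 in transgenic and 4.33 in wild-type brainstem/cerebellum (-0.21). In spinal cord that probe read 4.10 in transgenic and 4.34 in wild-type tissue (-0.23), a similar amount. A dimmer Psmc6 probe gave 0.13 in brainstem/cerebellum and 0.05 in spinal cord. Psmc4 had the smallest difference of the class in both tissues, at 3.24 in transgenic and 3.31 in wild-type brainstem/cerebellum and 3.0 in transgenic and 3.09 in wild-type spinal cord.

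The non-ATPase subunits had a median difference of -0.19 in brainstem/cerebellum, with 13 of 14 below 0, and -0.07 in spinal cord, with 8 of 14 below 0. Below 0 were 59.3% and 53.4% of all genes, and 73.4% and 64.1% of the brightest 10%. The 8 subunits of the lid, the part that removes ubiquitin, had medians of -0.16 in brainstem/cerebellum and -0.07 in spinal cord. Psmd14, the deubiquitinase of the lid, was lower in both tissues by its brightest probe (-0.22 and -0.36), while a dimmer probe gave -0.21 and -0.06. Psmd4, a ubiquitin receptor, differed by -0.24 in brainstem/cerebellum and 0.07 in spinal cord. Psmd2, the scaffold that docks ubiquitin-like shuttle proteins, had opposite differences: 3.77 in transgenic and 4.03 in wild-type brainstem/cerebellum (-0.26), and 3.94 in transgenic and 3.63 in wild-type spinal cord (0.31). A second Psmd2 probe, printed above, gave -0.21 and 0.21, neither beyond 2 technical SDs (SD 0.13 at its level). With spike-in scaling the spinal cord difference of Psmd2 turned to -0.16, where all genes had shifted to -0.52. Here too the wild-type spinal cord array had the most distant value.

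Psmd5, Psmd9 and Psmd10 carry subunit names but act as assembly factors of the regulatory particle. Psmd5 read 0.80 in transgenic and 1.1 in wild-type brainstem/cerebellum (-0.30, the lowest non-ATPase value there), and 0.48 in transgenic and 1.13 in wild-type spinal cord (-0.65, and -0.53 with normexp, which is under 1.5-fold). Both transgenic values were below both wild-type values, as they also were for other subunits such as Psma2, Psmb4, Psmb5 and Psmc5. Psmd9 read -0.82 in transgenic and -0.82 in wild-type brainstem/cerebellum and -0.85 in transgenic and -0.69 in wild-type spinal cord. Core and regulatory particle did not separate in brainstem/cerebellum, where the core median minus the regulatory median was -0.01. In spinal cord it was 0.09 by the medians and 0.21 by the means, where the core mean includes the 1.75 of Psma8. Without the assembly factors and the tissue-restricted members it was 0.07 by the medians.

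**Figure D3:**
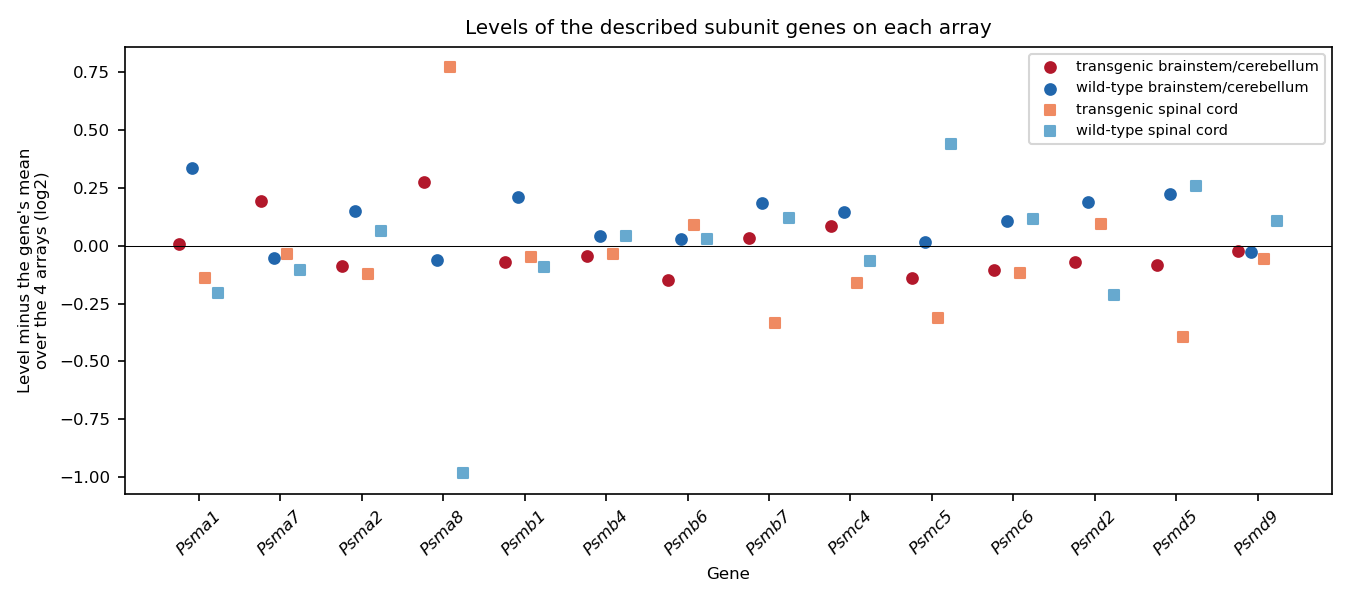
Level of 14 described subunit genes on each array, as the difference from the gene's own mean over the 4 arrays (log2). Circles are brainstem/cerebellum, squares spinal cord, red tones transgenic and blue tones wild type; wild-type spinal cord is the most distant array for Psma8, Psmc5, Psmd2 and Psmd9.

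The subunits varied little over the 4 arrays, tissues included. The median range from the lowest to the highest array was 0.30 for the 35 subunits, 0.68 for all 16487 genes and 0.53 for the 1649 brightest. A range under 1.5-fold was found for 32 of the 35 subunits, 41.8% of all genes and 57.0% of the brightest. The exceptions among the subunits were Psma8, Psmc5 and Psmd5. With spike-in scaling the subunits' median range was 0.60 (0.86 for all genes). Only 15 of the 35 subunits then stayed under 1.5-fold, against 26.2% of all genes. The array farthest from the mean of the other 3 was transgenic brainstem/cerebellum for 7 subunits and wild-type brainstem/cerebellum, always as the highest, for 10. It was transgenic spinal cord for 6 and wild-type spinal cord for 12. Over all genes the shares in this order were 11%, 14.1%, 45.6% and 29.2%.

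**Figure D4:**
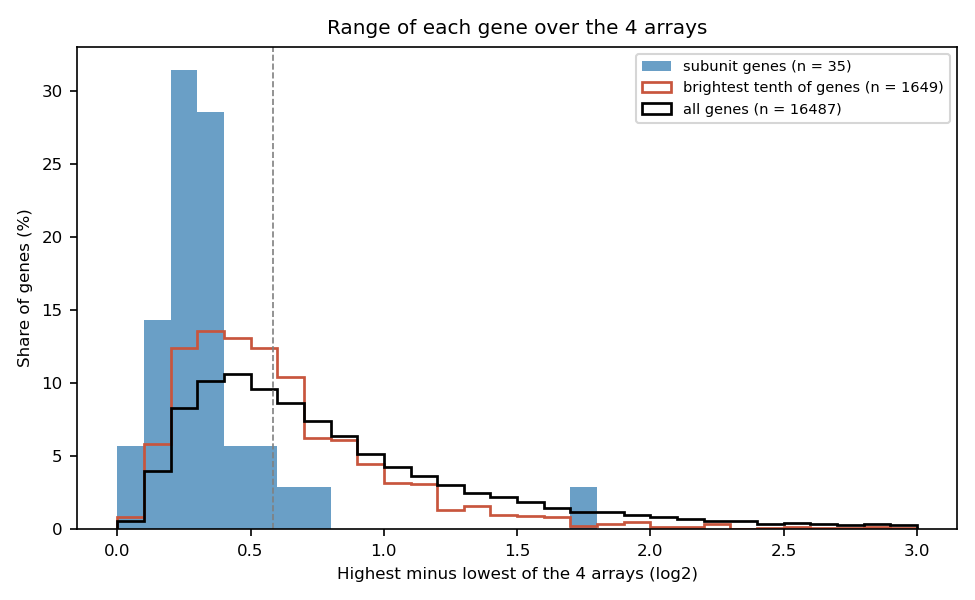
Highest minus lowest level over the 4 arrays (log2) as the share of genes (%) in steps of 0.1, for the 35 subunits (filled), the brightest 10% of genes (red line) and all genes (black line); the dashed line marks 1.5-fold and values over 3 are not drawn. Of the subunits, 32 lie left of the dashed line.

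The tissues themselves differed little in these genes. Spinal cord minus brainstem/cerebellum had a median of -0.01 in transgenic mice, both arrays being on 1 slide, and -0.05 in wild-type mice, across slides. In transgenic mice no subunit passed 1.5-fold, with Psmb7 lowest (-0.37) and Psma8 highest (0.49), where 18.7% of all genes were higher and 14.8% lower by that size. In wild-type mice only Psma8 did (-0.92), where 16% of all genes were higher and 11.3% lower, and none passed 2-fold (6.8% higher and 4.24% lower of all genes). These comparisons use the same 4 arrays as those of the genotypes and add no independent measurement. On the shared slide, transgenic spinal cord against wild-type brainstem/cerebellum put Psma8 higher and Psmd5 lower past 1.5-fold, while Psmc5 did not pass. Of all genes 18.5% were higher and 19.7% lower by that size. This pair differs in both genotype and tissue, which cannot be told apart in it.

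Probes of 1 gene did not always give 1 answer. Of 19 subunits with at least 2 probes above background, 6 had probes whose differences lay over 0.5 apart in at least 1 tissue, and the median gap was 0.11 in brainstem/cerebellum and 0.29 in spinal cord. The Psma3 probe printed above read 1.53 in transgenic and 1.58 in wild-type brainstem/cerebellum but 1.33 in transgenic and 2.5 in wild-type spinal cord (-1.17), while the brightest Psma3 probe read 4.49 in transgenic and 4.71 in wild-type brainstem/cerebellum and 4.61 in transgenic and 4.70 in wild-type spinal cord (-0.09). The 2 RefSeq probes of Psmb2 differed by -0.12 and -0.27 in spinal cord, while another probe, on a different transcript, gave -1.2, at -1.72 in transgenic and -0.52 in wild-type tissue. For Psmc2 the brightest probe read 3.80 in transgenic and 4.13 in wild-type spinal cord (-0.33), and a dim probe of another transcript -2.12 in transgenic and -2.86 in wild-type (0.74).

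In brainstem/cerebellum the widest gap was that of Psmc4, whose brightest probe gave -0.06 and whose dimmer RefSeq probe read -0.60 in transgenic and -1.66 in wild-type tissue (1.06). Psmd1, the largest non-ATPase scaffold, had 4 probes between -0.37 and 0.41 in brainstem/cerebellum and between -0.68 and -0.20 in spinal cord, where its brightest probe read 4.02 in transgenic and 4.37 in wild-type tissue. The 4 Psma4 probes lay between -0.35 and 0.22 in spinal cord, and its brightest read 4.69 in transgenic and 5.01 in wild-type brainstem/cerebellum. Of 55 probes that carry a RefSeq accession and were above background, 50 were lower in transgenic brainstem/cerebellum, and of 8 others 3 were. In spinal cord 39 of the 55 were lower. Several of these probes belong to 1 gene, and the share over all probes is not given here. Of all genes 59.3% were below 0 in brainstem/cerebellum and 53.4% in spinal cord, and of the brightest 10% 73.4% and 64.1%. Most of the 8 others were dim, with levels below 0, so annotation and level cannot be told apart. For 15 subunits with at least 2 RefSeq probes, whose outermost probes began 24 to 39234 bases of genome apart, the difference of the upstream probe minus that of the downstream one had a median of 0.04 in brainstem/cerebellum and -0.22 in spinal cord, with 12 of 15 below 0 in spinal cord. Over 5095 genes the medians were 0.05 and 0.08, and 42.6% were below 0 in spinal cord.

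Of the 3 interferon-inducible counterparts, Psmb8 and Psmb9 were higher past 1.5-fold in both transgenic tissues, while Psmb10 lay near its constitutive counterpart Psmb7. Of all genes 6.43% were higher by that size in brainstem/cerebellum and 16.2% in spinal cord. Psmb8, which replaces Psmb5 in immunoproteasomes, read 0.07 in transgenic and -1.26 in wild-type brainstem/cerebellum (1.32), and 1.34 in transgenic and -0.55 in wild-type spinal cord (1.89). Its difference minus that of Psmb5 was 1.55 in brainstem/cerebellum and 2.12 in spinal cord. Psmb9, which replaces Psmb6, read -0.36 in transgenic and -1.33 in wild-type brainstem/cerebellum (0.97) and 1.03 in transgenic and -0.70 in wild-type spinal cord (1.74). Its second probe was not well above background. Psmb10, which replaces Psmb7, differed by -0.12 in brainstem/cerebellum and -0.20 in spinal cord, and its difference minus that of Psmb7 was 0.03 and 0.25. The Psmb5 and Psmb8 probes happen to cover corresponding stretches of the 2 related genes, at chr14:55233161-55233220 on the minus strand and chr17:34337771-34337830 on the plus strand (mm9). They are shown with the identical bases of their best ungapped alignment in capitals, 31 of 50 aligned bases (62%), so 19 positions set the 2 probes apart.
Psmb5: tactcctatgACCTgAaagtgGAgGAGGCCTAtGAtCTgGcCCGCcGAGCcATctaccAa
Psmb8: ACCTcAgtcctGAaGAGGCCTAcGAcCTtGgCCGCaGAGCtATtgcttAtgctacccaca

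Markers of microglia and macrophages were mostly higher as well. Of 10 such genes 7 were higher past 1.5-fold in each tissue, against 6.43% of all genes in brainstem/cerebellum and 16.2% in spinal cord. Their median differences were 0.75 in brainstem/cerebellum and 1.69 in spinal cord, and all 10 were above background on every array. By its brightest probe Ptprc was lower in both tissues (-0.49 and -0.85). Its 7 probes, without a filter on background, lay between -0.85 and 4.9 in spinal cord, so its direction depends on the probe. In spinal cord Itgam (-0.28, with its 2 probes between -0.28 and 0.21) and P2ry12 (-0.23) were lower too. The mean level of the 10 was 2.15 in transgenic and 1.28 in wild-type brainstem/cerebellum, and 3.60 in transgenic and 2.10 in wild-type spinal cord. The 8 neuron markers had a median difference of -0.23 in brainstem/cerebellum and -0.65 in spinal cord, with 7 of 8 and 8 of 8 below 0, and a mean level of 4.73 in transgenic and 5.53 in wild-type spinal cord. In brainstem/cerebellum the neuron mean was 5.04 in transgenic and 5.28 in wild-type tissue. Their part in the subunit differences was not tested. In bulk tissue, fewer cells of a type and less RNA per cell cannot be told apart.

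Other genes of the pathway gave a mixed picture. Of the activators and the inhibitor, Psme1, the interferon-inducible activator subunit, read 2.55 in transgenic and 2.37 in wild-type brainstem/cerebellum (0.18) and 3.15 in transgenic and 2.21 in wild-type spinal cord (0.93). Psme4, a nuclear activator, differed by 0.68 in spinal cord by its brightest probe, with its 4 probes between -0.80 and 0.68. Of the 5 assembly chaperones none passed 1.5-fold in brainstem/cerebellum and 1, Psmg2, was lower in spinal cord (-0.77), where its 3 probes ranged from -1.96 to 0.50. In spinal cord 17.7% of all genes were lower by that fold. Of 9 proteasome-bound receptors and deubiquitinases 8 were below 0 in brainstem/cerebellum (median -0.18) and 5 in spinal cord (median -0.20), with Ubqln4 lowest (-0.67, and its 3 probes between -0.67 and 0.55). The 6 ubiquitin and E1 enzyme genes lay between -0.23 and 0.00 in brainstem/cerebellum and between -0.22 and 0.39 in spinal cord.

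**Figure D5:**
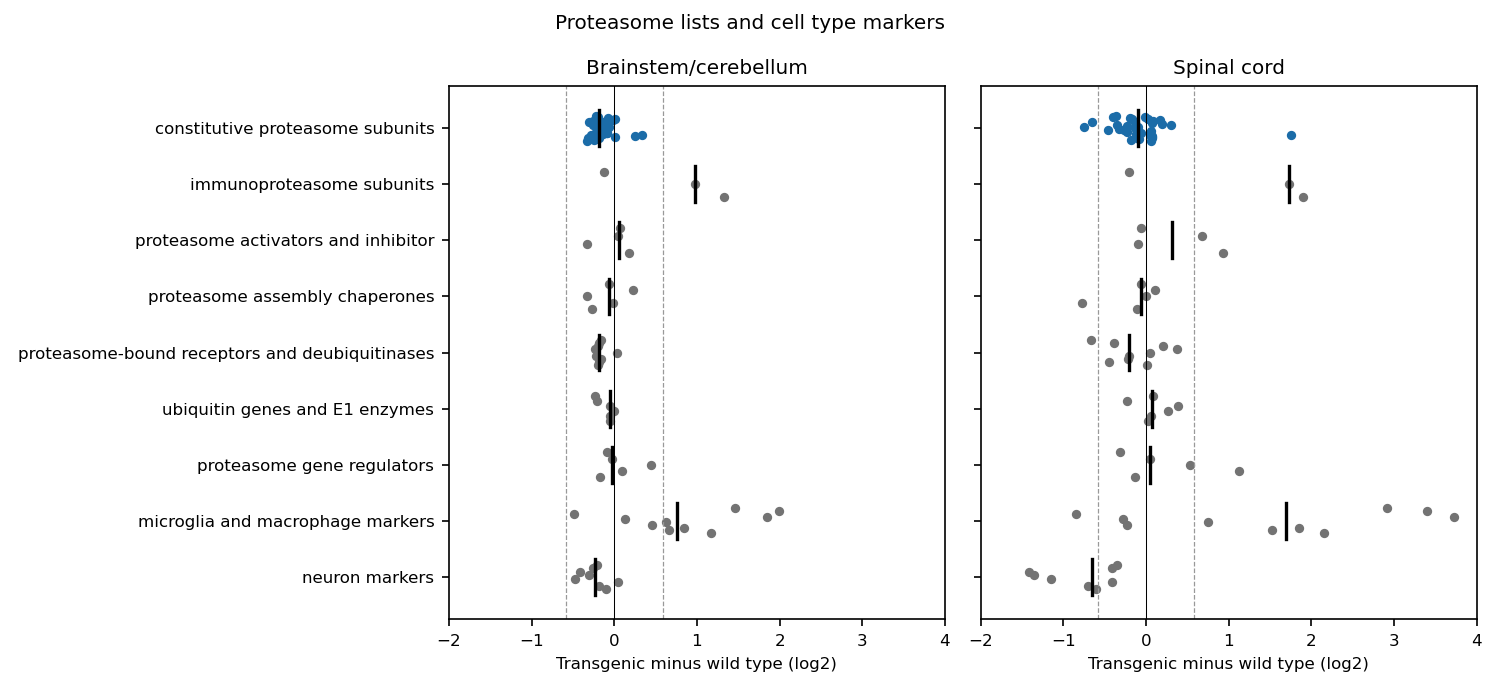
Transgenic minus wild type (log2) of each gene in the constitutive subunit list (blue) and in the other proteasome and marker lists (grey), in brainstem/cerebellum (left) and spinal cord (right); black bars are list medians and dashed lines mark 1.5-fold. The constitutive subunits sit around -0.18 and -0.09, the inducible subunits Psmb8 and Psmb9 above 0.9.

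Transcription of subunit genes is raised by the factor encoded by Nfe2l1 when proteasome activity falls short, through antioxidant response elements in their promoters, and Nfe2l2 encodes a related factor that binds the same elements. Nfe2l1 differed by -0.18 in brainstem/cerebellum and -0.13 in spinal cord by its brightest probe, and by 0.55 in spinal cord by the other. Nfe2l2 read 1.2 in transgenic and 1.11 in wild-type brainstem/cerebellum (0.09) and 2.64 in transgenic and 1.52 in wild-type spinal cord (1.12), where its other probe gave 2.26. A RefSeq promoter (GRCm38.p6, from 250 bases before to 50 after the start) was at hand for 29 of the 36 subunits, and Psma8, Psmb1, Psmb2, Psmb7, Psmc3, Psmd3 and Psmd7 had no entry. The core of the element, TGACNNNGC on either strand, was found in 5 of the 29 (17.2%) and in 14% of 27025 genes with a promoter. The 5 are shown with the motif in capitals. They lie at chr14:54618022-54618054 on the minus strand, chr11:70525336-70525356, chr5:123228147-123228179, chr14:45329585-45329617 and chr11:107479278-107479301, all 4 on the plus strand.
Psmb5: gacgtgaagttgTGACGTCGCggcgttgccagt
Psmb6: gactaaagagagTGACGGAGC
Psmd9: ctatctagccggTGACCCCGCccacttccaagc
Psmc6: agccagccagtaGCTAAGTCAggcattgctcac
Psmd12: tctGCTGTGTCAcatttgcccccc
The 5 genes had median differences of -0.20 in brainstem/cerebellum and -0.23 in spinal cord, and the 23 measured genes without the motif -0.15 and -0.09. A match is a string of letters and not a bound site.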

How the data were processed

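The 4 deposited scanner files hold spot intensity values on a linear scale. Per the file headers they were made with Agilent Feature Extraction 10.7.1.1 (the submitters' processing notes give 9.5.1.1), with probe positions in mm9. The authors' series table also holds intensity values, which matched a quantile normalization computed here, with the same median of 30.4 in all 4 columns.

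Each value is log2 of the processed signal minus the array's 75th percentile over non-control spots. Outlier-flagged spots were left out, spots of 1 probe were averaged, and each gene was read from its brightest probe by mean level. A gene counted where it was well above background on both arrays, and the threshold was 1.5-fold. Technical SDs came from spots within an array, of 300 probes spotted 10 times and of spike-in probes, by level. Only 6 of these probes lay between levels of -4 and -2. Genes were named through a RefSeq table of GRCm38.p6. Python 3.11.15, R 4.3.3 and limma 3.58.1 were used, and the calls were tested on simulated data.

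The members and gene lists were chosen with earlier results of these data known. Values on all 4 arrays are given for the extremes of each class, genes whose probes disagree by over 0.5, the largest differences between tissues and members below background. Calls beyond 2 technical SDs, the range over arrays, the most distant array and Psma7, Psmb5, Psmd4 and Psmd14 as examples were added after values were seen. The alternatives were other scalings, quantile normalization, normexp with an offset of 50, the authors' values, other filters, probe rules and folds. Cyclic loess was added later.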

Additional observations from a re-analysis of the deposited data

Results flagged for a closer look

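Psmd2 was the only subunit whose differences beyond 2 technical SDs ran in opposite directions in the 2 tissues. It was lower in transgenic brainstem/cerebellum (3.77, against 4.03 in wild type) and higher in transgenic spinal cord (3.94, against 3.63 in wild type). The spinal cord difference minus the brainstem/cerebellum difference was 0.57. The second Psmd2 probe went the same way (0.21 and -0.21), but neither of its differences passed 2 technical SDs (SD 0.13 at its level). By the brightest probe, opposite differences beyond 2 technical SDs were seen for 1 of 35 subunits and for 2.71% of all genes. With 1 array in each group this difference was not tested. With spike-in scaling the spinal cord difference was -0.16, so the opposite direction was lost. Neither difference reached 1.5-fold, and wild-type spinal cord, the array on the other slide, was the most distant of the 4. A larger gap between the tissues was that of Psma8 (1.42), with the same sign in both, and the largest in the other direction was that of Psmc5 (-0.60).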

How the results depend on the processing

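No paired analysis was possible because each group has 1 array, and for the same reason no replicate could be left out and no slide term fitted. No subunit past 1.5-fold between genotypes changed sign under an alternative, but several values moved, and the causes were not tested beyond the shifts of all genes given here. The subunit median in brainstem/cerebellum was -0.36 with scaling on the array median, where all genes shifted to -0.24. In spinal cord it was -0.56 with spike-in scaling, where all genes shifted to -0.52, and 17 subunits then passed 1.5-fold (1 higher, 16 lower), where 7.95% of all genes were higher and 45% lower. Spike-in scaling also moved the tissue medians to -0.36 in transgenic mice (all genes -0.37) and 0.15 in wild-type mice (all genes 0.18). Past 1.5-fold were then 3 subunits in transgenic mice, all lower, where 11.1% of all genes were higher and 33.1% lower. In wild-type mice 2 subunits passed, 1 each way, where 23.0% of all genes were higher and 6.7% lower. Scaling on the array median gave -0.16 and 2 subunits past 1.5-fold for the wild-type tissues, where 12.8% of all genes were higher and 15.5% lower. For the transgenic tissues the median was -0.15 with normexp and -0.13 with cyclic loess, and the mean of all probes put 2 subunits past 1.5-fold. The wild-type tissue count was 0 with normexp, where 8.89% of all genes were higher and 7.77% lower. With every probe counted, 1, 7, 1 and 6 of 63 probes passed 1.5-fold in brainstem/cerebellum, spinal cord, transgenic tissues and wild-type tissues. At the lowest fold tried these counts were 2, 8, 2 and 6 of 35 genes. The shares of all probes or genes are not given for these counts, nor for the mean of all probes. Whether such counts are many or few was therefore not tested. At 2-fold 1 subunit passed in spinal cord and 0 in the wild-type tissues. Without the assembly factors and tissue-restricted members the counts were 1 (Psmc5) in spinal cord and 0 in the wild-type tissues. Core minus regulatory in spinal cord was 0.21 by the mean, which includes the 1.75 of Psma8. In brainstem/cerebellum it lay between -0.05 and 0.04 and changed sign among settings. With the authors' values or quantile normalization the subunit median was -0.09 in brainstem/cerebellum and -0.05 in spinal cord. The number of arrays limits the precision of every value.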
